A study of Mus musculus with 9 samples.

Results

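The miR-126 rows of a mouse liver small RNA sequencing table were taken by name: every row that begins with mmu-miR-126a- or mmu-miR-126b- was a member. This gave 4 of the 1140 rows, namely mmu-miR-126a-3p, mmu-miR-126a-5p, mmu-miR-126b-3p and mmu-miR-126b-5p, written below without the species prefix. The libraries came from 9 livers of male C57BL/6 mice, which were 8 weeks old when injections began, with n = 3 per group. The control group received normal saline intraperitoneally for 8 weeks, the TAA group received thioacetamide (TAA, a hepatotoxin that gives liver fibrosis) by the same route for 8 weeks, and the recovery group received the same TAA course and was then left untreated for 8 weeks more. Control and TAA mice were killed a few days after the last injection, per the study's methods. A recent dose and established fibrosis therefore cannot be told apart in the TAA livers. No mice were kept untreated for the same extra time, so recovery and the longer time since the start cannot be told apart. Each library was made from total RNA of whole liver. Fewer cells of a type and less RNA per cell cannot be told apart in such samples.

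miR-126 is the miRNA most often used as a mark of endothelial cells. Its hairpin lies in an intron of Egfl7, which codes for a protein secreted by endothelial cells, and both arms of the hairpin are used. The 3p arm strengthens signalling from vascular endothelial growth factor by repressing Spred1 and Pik3r2, which restrain that signalling, and it represses the leukocyte adhesion molecule Vcam1. The 5p arm is known for sustaining endothelial proliferation through repression of Dlk1. In the liver the sinusoidal endothelium is the largest population of endothelial cells. The question the groups pose for these rows is how an endothelial miRNA stood in the livers after the toxin course and after its withdrawal.

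The sequences are shown because the names hide how the rows relate to each other on the genome. RefSeq places the Mir126a hairpin on the plus strand (GRCm38.p6, chr2:26591357-26591429) and the Mir126b hairpin on the minus strand of the same stretch (chr2:26591363-26591420). All 58 bases of the Mir126b hairpin were the reverse complement of part of the 73-base Mir126a hairpin. The host gene Egfl7 spans chr2:26580014-26593120 on the plus strand in the same build. Of its 9 annotated transcripts that span the hairpin (GENCODE M21), the hairpin lay in an intron of 8 and in an exon of 1, a retained-intron transcript. In 6 of those 8 it began 294 bases after the exon before it and ended 235 bases ahead of the next one. Capitals in the hairpins mark the mature arms that have an entry in the RefSeq table, and capitals in the mature miRNAs mark the seed, bases 2 to 8.
Mir126a hairpin: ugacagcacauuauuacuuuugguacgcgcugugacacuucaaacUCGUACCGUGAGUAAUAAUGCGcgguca
Mir126b hairpin: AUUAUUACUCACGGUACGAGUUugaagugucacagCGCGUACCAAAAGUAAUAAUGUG
miR-126a-3p: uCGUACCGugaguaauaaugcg
miR-126b-3p: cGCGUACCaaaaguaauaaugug
miR-126b-5p: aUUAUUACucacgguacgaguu
miR-126a-3p covered bases 46 to 67 of its hairpin, and miR-126b-5p lay across it on the opposite strand with 19 bases shared and 3 bases of miR-126a-3p outside. miR-126b-3p covered, on the opposite strand, bases 7 to 29 of the Mir126a hairpin, on the 5p side. The 3 seeds differed from each other, and none of the other listed rows with a RefSeq mature sequence carried any of them.

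The row of miR-126b-3p repeated that of miR-126a-5p. The counts of these rows were equal in 8 of 9 samples, and in the remaining sample, control replicate 2, they were 5883 and 5886. The mature miR-126b-3p lies on the strand opposite to the 5p side of Mir126a, and neither the strand setting nor the treatment of reads with several matches is given in the sources used here. The table held 17 such near-identical pairs (counts that differed by less than 2% in all). miR-126b-3p is therefore not counted as a separate measurement in what follows, and its values are those of miR-126a-5p. miR-126b-5p did not repeat the row of miR-126a-3p, across which it lies. Whether its counts came from its own strand was not tested.

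Library totals ran from 9071847 to 12983378 counts over the 9 samples, and no replicate pair agreed within counting noise. One feature of the whole table bears on every level given here. The factors of the trimmed mean of M values (TMM, a scaling that assumes most rows do not change) were 0.739 to 0.792 in control livers, 1.43 to 1.63 in TAA livers and 0.766 to 0.887 in recovery livers, so the library total and TMM give different levels for the same count. The sum of 3 reference miRNAs often used for scaling (miR-16-5p, miR-103-3p and miR-191-5p) was 0.19% to 0.204% of all counts in control livers, 0.35% to 0.374% in TAA livers and 0.194% to 0.22% in recovery livers. Of the table's rows, miR-122-5p, the main hepatocyte miRNA, was also listed a second time as miR-122b-3p: its 17404414 counts over the 9 samples differed by 1991 between the rows, and entered each library total under both names. With TMM its log2 fold change was -1.96 in TAA against control and 1.68 in recovery against TAA. The repeat thus took a smaller part of the totals in TAA livers, which raises their values by library total relative to the other groups. Values by library total were not recomputed without it.

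miR-126a-3p was among the most abundant miRNAs of every liver. Its counts were 78713, 61961 and 59761 in the control livers (replicates 1, 2 and 3 in that order here and below), 90783, 77432 and 96171 in the TAA livers, and 70483, 90756 and 88619 in the recovery livers. It ranked between 13 and 16 among all rows in each of the 9 libraries. At this depth the counting error of a single value was at most 0.409%.

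As a share of its library, miR-126a-3p was highest in the TAA group. In CPM by library total (counts scaled to the same total in every library, which is what the deposited TPM hold), it was 6063, 6037 and 6006 in control livers, 8020, 8535 and 10492 in TAA livers and 5772, 7396 and 7111 in recovery livers. The group means were 6035 ± 28.2 (SD, n = 3), 9016 ± 1304 and 6759 ± 867. All TAA livers lay above all control and recovery livers on this scale, and the recovery livers overlapped the controls. The totals hold the miR-122 reads under both names, and the order without the repeat was not tested. The control livers were within a coefficient of variation of 0.467%, against 14.5% among TAA and 12.8% among recovery livers.

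On the TMM scale the TAA livers, highest by library total, were lowest. miR-126a-3p stood at 7653, 8174 and 7954 TMM-scaled CPM in control livers, 5598, 5226 and 6457 in TAA livers and 7533, 8335 and 8118 in recovery livers. The means were 7927 ± 261 (SD, n = 3), 5761 ± 631 and 7995 ± 415, with every TAA liver below every control and recovery liver. Per 1000 counts of the 3 reference miRNAs the means were 3064 ± 118, 2510 ± 384 and 3222 ± 529, and the TAA livers overlapped both other groups. The order of the groups for this miRNA was thus set by the scale, except that control and recovery were neighbours that did not differ beyond their spread on any of these scales.

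miR-126a-5p, the other arm of the hairpin, was the less abundant one in every liver. Its counts were 8470, 5886 and 5667 in control livers, 8320, 7016 and 6529 in TAA livers and 7615, 8562 and 8627 in recovery livers, and it ranked between 36 and 51. Counting error was at most 1.33%. On the TMM scale it stood at 824, 777 and 754 CPM in control livers, 513, 474 and 438 in TAA livers and 814, 786 and 790 in recovery livers, so that the TAA livers lay apart from and below the others. Per 1000 reference counts the TAA livers were again all lower, at 206 ± 4.94 (SD, n = 3) against 304 ± 25.4 in the control group and 320 ± 36 in the recovery group. By library total the TAA livers were all higher, at 740 ± 30.9 CPM against 598 ± 46.7 and 671 ± 41.3. The gap was small, with TAA replicate 3 at 712 and recovery replicate 2 at 698. Whether the groups stay apart without the repeated miR-122 row in the totals was not tested.

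**Figure D1:**
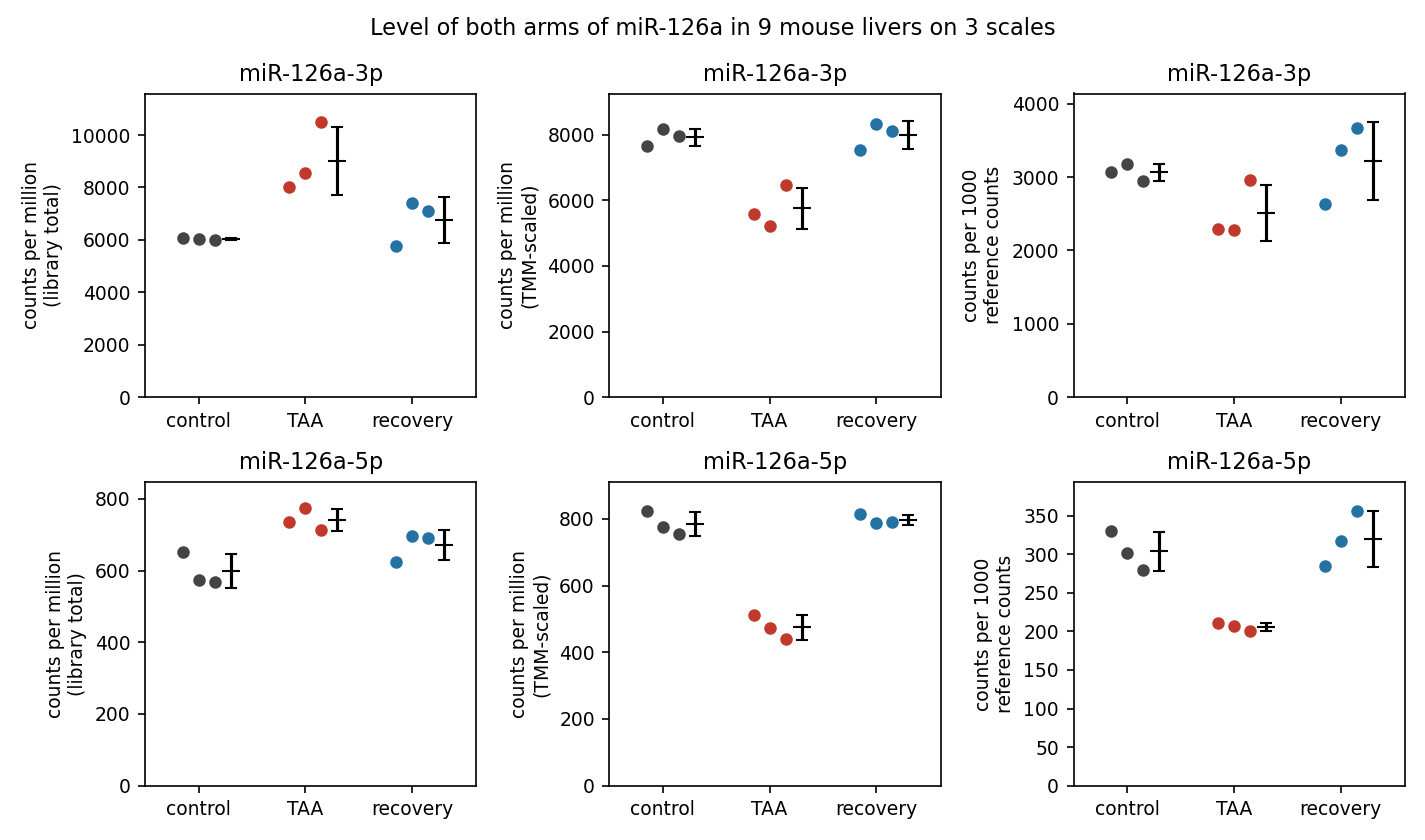
Level of miR-126a-3p (top) and miR-126a-5p (bottom) in each liver, as CPM by library total (left), TMM-scaled CPM (middle) and counts per 1000 counts of 3 reference miRNAs (right); points are single livers in replicate order, and bars are mean ± SD of n = 3. The TAA livers are above all others by library total and below all others on the TMM scale for both arms, while per reference count they are below all others for miR-126a-5p only. Library totals hold the miR-122 reads under both names, and on that scale TAA and recovery livers are close for miR-126a-5p.

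miR-126b-5p was a minor row. It had 295, 175 and 121 counts in control livers, 188, 162 and 270 in TAA livers and 274, 268 and 284 in recovery livers, with a counting error of up to 9.09% for a single value. Relative to miR-126a-3p, across which it lies on the opposite strand, it had between 0.202% and 0.389% of the counts in the 9 livers. Its TMM-scaled levels were 28.7, 23.1 and 16.1 CPM in control livers, 11.6, 10.9 and 18.1 in TAA livers and 29.3, 24.6 and 26.0 in recovery livers. The TAA livers overlapped the controls and lay below the recovery livers on this scale. By library total they overlapped both.

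The first comparison asked how the rows differed between the toxin course and saline. With the quasi-likelihood test of edgeR on TMM-scaled counts and Benjamini-Hochberg adjustment over all 420 rows tested, the miR-126 rows were lower in the TAA group, and by library total the fold changes of the same rows were above 0. miR-126a-3p fell by 0.55 on the log2 scale (SE 0.11, adjusted p = 0.00371) with TMM, but rose by 0.58 (SE 0.12, adjusted p = 0.0031) by library total. miR-126a-5p fell by 0.81 (SE 0.12, adjusted p = 0.00107) with TMM and rose by 0.31 (SE 0.12, adjusted p = 0.0455) by library total. The latter call was close to the threshold, and it was not tested with the repeated miR-122 row left out of the totals. miR-126b-5p fell by 0.83 (SE 0.30, adjusted p = 0.0466) with TMM, and its value by library total was 0.30 (SE 0.31, adjusted p = 0.423). A call (adjusted p below 0.05) was no rarity in this comparison: 58.3% of all rows tested were called with TMM, 26.4% as lower and 31.9% as higher, and 77.1% were called by library total, with 71.9% called higher. With TMM none of the miR-126 rows was a differentially expressed miRNA by the criterion used in the study, which asks in addition for a fold change of at least 2, a bar that 41.7% of all rows passed. The fitted values are from the 6 samples compared, whose TMM factors were computed without the recovery group, and so differ a little from the ratio of the means above.

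The place of the miR-126 rows among all miRNAs depends little on the scale, since a change of scaling shifts all rows by about the same amount. It is a relative value: a distance from the median row takes that row as unchanged. Neither the distance nor the rank shows whether the level itself fell or rose. The median log2 fold change of all rows tested was 0.11 with TMM, 0.36 with the reference miRNAs and 1.23 by library total. Relative to that median, miR-126a-3p was at -0.66 and miR-126a-5p at -0.93 with TMM. From the highest fold change downward, miR-126a-3p was in place 308 of 420 and miR-126a-5p in place 328 with TMM. When the libraries were scaled to the reference miRNAs, miR-126a-3p was no longer called (log2 fold change -0.29, SE 0.12, adjusted p = 0.0806), while miR-126a-5p was (-0.56, SE 0.12, adjusted p = 0.00566). Of the 3 reference miRNAs 2 were themselves called lower in TAA against control with TMM (26.4% of all rows). These were miR-16-5p at -0.56 (edgeR adjusted p = 0.00621) and miR-103-3p at -0.40 (adjusted p = 0.0381). None of the 3 was called in the other comparisons.

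The second comparison set the recovery group against the TAA group, and so shares its TAA livers with the first. With TMM, miR-126a-3p rose by 0.45 on the log2 scale (SE 0.13, adjusted p = 0.0263), whereas by library total it fell by 0.42 (SE 0.16, adjusted p = 0.0484). miR-126a-5p rose by 0.73 with TMM (SE 0.13, adjusted p = 0.00367), and its value by library total was -0.14 (SE 0.14, adjusted p = 0.389). miR-126b-5p rose by 0.95 with TMM (SE 0.25, adjusted p = 0.0192), with a value of 0.07 by library total (SE 0.26, adjusted p = 0.841). The background here was 39.1% of 440 rows called, 18.4% as higher and 20.7% as lower, and by library total 64.1% were called, with 60% called lower. With TMM 24.8% were also past a fold change of 2, which none of the miR-126 rows was with this test. With DESeq2, the tool of the study, miR-126b-5p was past it (log2 fold change 1.03, adjusted p = 0.000327), as it was in edgeR with the size factors of DESeq2 (1.01, adjusted p = 0.0127) and with upper-quartile factors (1.13, adjusted p = 0.00885). Relative to the median of all rows, which was -0.12 with TMM and -0.98 by library total, miR-126a-3p was at 0.57 and miR-126a-5p at 0.84 with TMM.

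The call of miR-126a-3p in recovery against TAA was close to the threshold. It was lost when the reference miRNAs set the scale (log2 fold change 0.36, adjusted p = 0.154) and without TAA replicate 2 (adjusted p = 0.0549), recovery replicate 2 (adjusted p = 0.0767) or recovery replicate 3 (adjusted p = 0.0651), while its log2 fold change with a replicate left out stayed between 0.44 and 0.57. For miR-126a-5p the call with TMM was kept without each replicate in turn, with adjusted p-values up to 0.0176. The call of miR-126b-5p in TAA against control was lost without control replicate 1 (adjusted p = 0.145) or 2 (0.105) and without TAA replicate 1 (0.105) or 2 (0.121), and that in recovery against TAA without recovery replicate 1 (0.0533).

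The third comparison set the recovery group against the control group. No miR-126 row was called, on a background of 14.1% of 391 rows called. The log2 fold changes with TMM were -0.03 for miR-126a-3p (SE 0.09, adjusted p = 0.936), -0.02 for miR-126a-5p (SE 0.09, adjusted p = 0.957) and 0.19 for miR-126b-5p (SE 0.22, adjusted p = 0.728). By library total they were 0.16, 0.17 and 0.36, and none was called (16.1% of all rows). The value of miR-126a-3p was the median of all rows with TMM, at place 196 of 391.

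**Figure D2:**
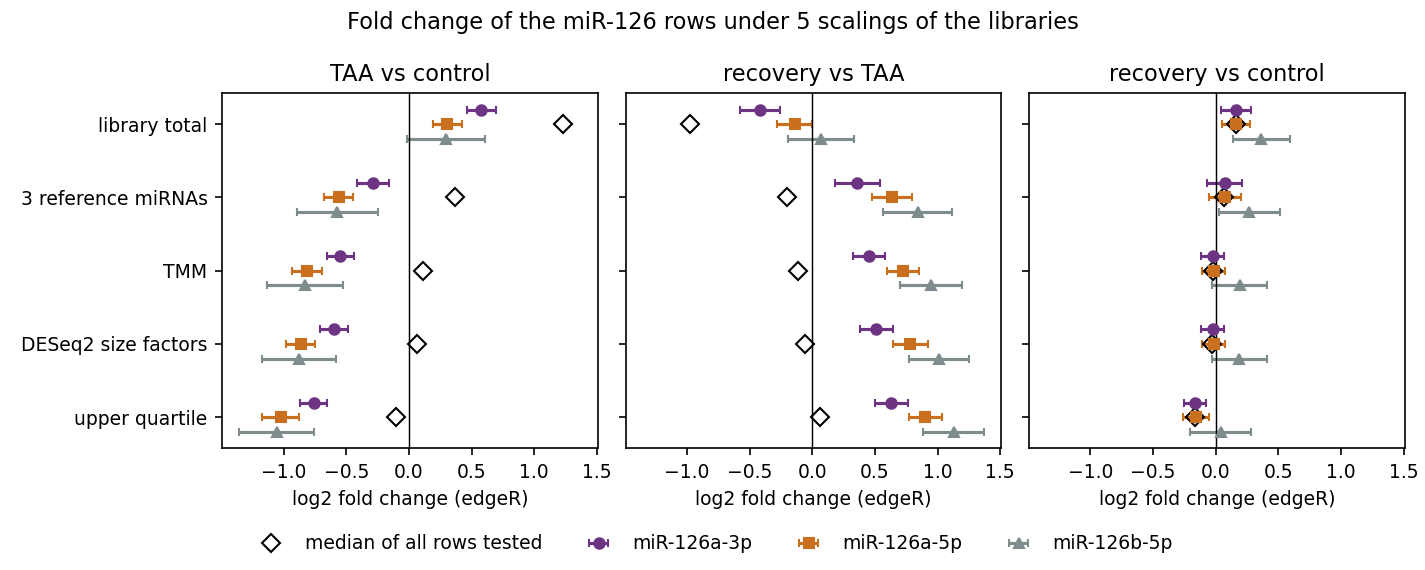
Log2 fold changes (edgeR, ± SE) of miR-126a-3p, miR-126a-5p and miR-126b-5p in the 3 comparisons (panels) under 5 ways of scaling the libraries (vertical axis), with diamonds for the median of all rows tested. In TAA vs control the miR-126 rows lie right of 0 by library total and left of 0 under the other scalings; in recovery vs TAA the rows of both miR-126a arms lie left of 0 by library total only. The median of all rows moves with the scaling as the miR-126 rows do.

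The ratio of the arms of the Mir126a hairpin needs no scaling, since both counts come from the same library. The count of miR-126a-3p over that of miR-126a-5p was 9.29, 10.5 and 10.5 in control livers, 10.9, 11.0 and 14.7 in TAA livers and 9.26, 10.6 and 10.3 in recovery livers. The means were 10.1 ± 0.718 (SD, n = 3), 12.2 ± 2.17 and 10.04 ± 0.701. Every TAA liver lay above every other liver, by little for replicates 1 and 2 and by much for replicate 3. The 3p arm made up 91.0%, 92.3% and 90.9% of the reads of both arms on average.

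The differences in the arm ratio did not pass the test. In TAA against control the log2 ratio was higher by 0.26 (SE 0.19, limma adjusted p = 0.504 over 95 hairpins, exact permutation p = 0.1, two-sided), and in recovery against TAA the change was -0.27 (SE 0.19, limma adjusted p = 0.412, exact permutation p = 0.1). An exact test of 3 against 3 cannot go below 0.1. In recovery against control the change was -0.01 (limma adjusted p = 0.993, exact permutation p = 0.9). Of the 95 hairpins with both arms at a mean count of at least 20, 5.26% were called in each of the first 2 comparisons and 0 in the third, and 51 and 53 hairpins had a larger absolute change than Mir126a. The 95 hairpins are not all separate measurements, since they include Mir126b and other hairpins with a near-identical row. Those called in TAA against control included miR-122 with miR-122b and miR-203 with miR-203b, pairs that share such a row. In recovery against TAA miR-203 and miR-203b were again both called. Without TAA replicate 3 the changes were 0.12 and -0.13, so a large part of their size came from that liver.

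**Figure D3:**
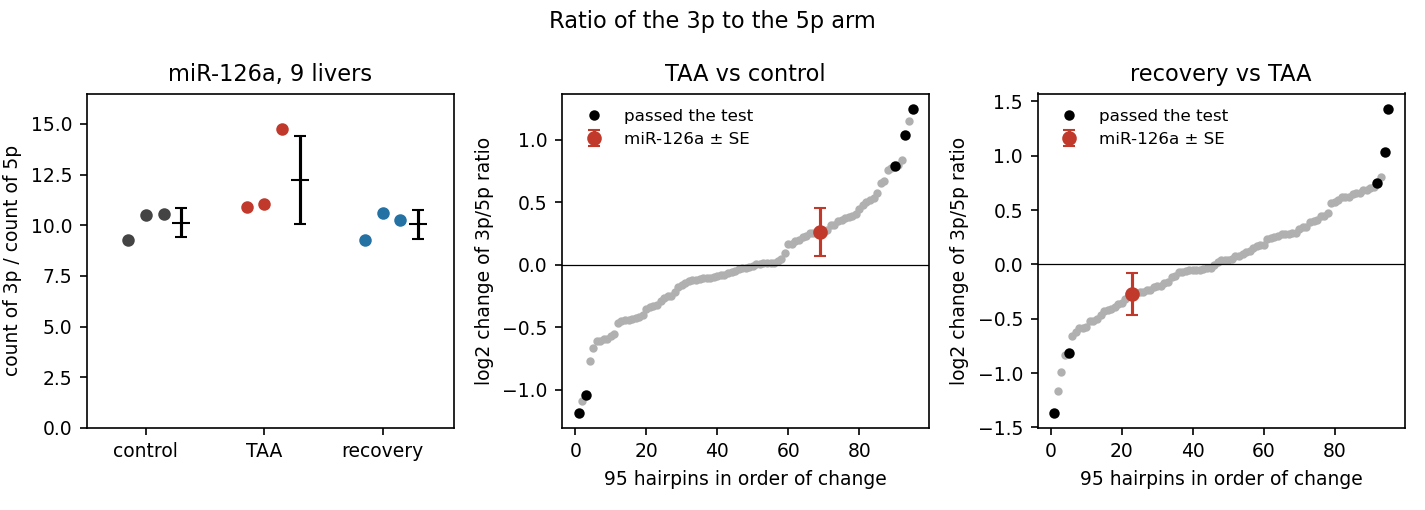
Left, count of miR-126a-3p divided by count of miR-126a-5p in each liver (points) with mean ± SD of n = 3; middle and right, log2 change of the 3p/5p ratio for 95 hairpins in order of size, with hairpins past the test in black and Mir126a in red with its SE. The TAA liver at 14.7 stands apart from the others, and Mir126a lies in the middle part of both orders.

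Among the hairpins of this liver table, Mir126a was a 3p-dominant one whose ratio varied less than that of most. The 3p arm was the larger in 40 of 95 hairpins, and 19 hairpins had a larger 3p excess than the mean ratio of 10.7 over 9 livers found for Mir126a. The SD of its log2 ratio over the 9 livers was 0.195, against a median of 0.369 over all 95 hairpins, and 11 hairpins had a smaller one. Counting noise is larger in hairpins with fewer counts, and no comparison with hairpins of like count was made. These are descriptions over hairpins that share the same 9 libraries.

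The rows whose counts ran most in parallel with miR-126a-3p included 2 of the let-7 family, which is abundant in most adult cells. Likeness was taken as the SD over the 9 samples of the log2 ratio of the counts, which is free of scaling, among 223 rows with a mean count of at least 100. The nearest was let-7c-5p (SD 0.139), followed by miR-3068-5p (0.161), let-7f-5p (0.166), miR-140-3p (0.166) and miR-10a-3p (0.168). The median over the rows was 0.469. miR-126a-5p had an SD of 0.195 and 16 rows were nearer to miR-126a-3p than its own partner arm. miR-126a-3p had 3.07 times the counts of let-7c-5p in control livers, 2.89 times in TAA livers and 3.07 times in recovery livers.

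Markers of other liver cells moved with the groups, and their ratio to miR-126a-3p is also free of scaling. Lists of miRNAs that mark a cell type were summed in each liver, and no marker was at 0 in any library. For hepatocytes (miR-122-5p, miR-192-5p and miR-194-5p) the list held 27.3% to 29.8% of all counts in control livers, 16.3% to 17.6% in TAA livers and 24.2% to 30.8% in recovery livers. The log2 ratio of miR-126a-3p to it was -5.55 ± 0.06 (SD, n = 3), -4.26 ± 0.17 and -5.32 ± 0.37. The TAA livers lay apart, with a difference of 1.29 from the control group and the recovery group 1.06 below TAA. All 3 members of this list were called lower in TAA against control (26.4% of all rows), and all 3 higher in recovery against TAA (18.4%), with TMM.

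Against leukocyte and biliary markers the order was the other way round. The leukocyte list (miR-142a-3p, miR-142a-5p, miR-223-3p and miR-150-5p) held 0.0142% to 0.0157% of counts in control livers, 0.0418% to 0.0504% in TAA livers and 0.0108% to 0.019% in recovery livers. The log2 ratio of miR-126a-3p to it was 5.34 ± 0.07 (SD, n = 3) in the control livers, 4.32 ± 0.06 in the TAA livers and 5.42 ± 0.27 in the recovery livers. The biliary epithelial list (the miR-200 family with miR-141-3p and miR-429-3p) held 0.043% to 0.0577%, 0.544% to 0.793% and 0.095% to 0.126% of counts. miR-126a-3p had 11.7 ± 2.01, 1.44 ± 0.383 and 5.94 ± 0.12 times its counts, and here the recovery livers lay apart from the controls as well, by -0.97 on the log2 scale. Of the leukocyte markers 3 of 4 were called higher in TAA against control with TMM (31.9% of all rows), and of the biliary markers 5 of 5 were, with 3 of these 5 also called higher in recovery against control (12% of all rows).

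For stellate cells and myofibroblasts, the collagen-making cells of fibrosis, the ratio of miR-126a-3p to the summed list overlapped between the groups, although single markers were called. Their list (miR-199a-3p, miR-199a-5p, miR-214-3p, miR-143-3p and miR-145a-5p) held 1.92% to 2.46% of counts in control livers, 2.94% to 6.42% in TAA livers and 1.68% to 3.14% in recovery livers. The log2 ratio of miR-126a-3p to it was -2.02, -1.81 and -1.68 in the control livers, -2.65, -1.79 and -2.61 in the TAA livers, and -1.54, -1.69 and -2.14 in the recovery livers. TAA replicate 2 sat among the controls. With TMM 3 of 5 members were called higher in TAA against control (31.9% of all rows), 3 of 5 lower in recovery against TAA (20.7%) and 1 of 5 higher in recovery against control (12%), and the median log2 fold change of the list was 1.44, -1.23 and 0.22. The sum also holds miR-143-3p and miR-145a-5p, named after their values were seen, which were at -0.02 and -0.25 in TAA against control and were not called (edgeR adjusted p = 0.944 and 0.272). The red cell list (miR-451a, miR-144-3p and miR-486a-5p, the last near-identical with miR-486b-3p) held 0.0583% to 0.101%, 0.0337% to 0.075% and 0.0252% to 0.0552% of counts. The log2 ratio of miR-126a-3p to it was above that of the control livers by 1.14 for TAA and by 1.03 for recovery, with no overlap in either case. With TMM 2 of its 3 members were called lower in TAA against control (26.4% of all rows), and 2 of 3 in recovery against control (2.05%).

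All these ratios were tested by exact two-sided permutation, where the smallest p of 3 against 3 is 0.1. The 9 ratios to cell type lists that did not overlap between groups had p = 0.1 by the exact test and 0.2 after Benjamini-Hochberg adjustment over 18 comparisons, so none could pass a threshold of 0.05. The part of these other cell types in the level of miR-126a-3p was not tested.

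**Figure D4:**
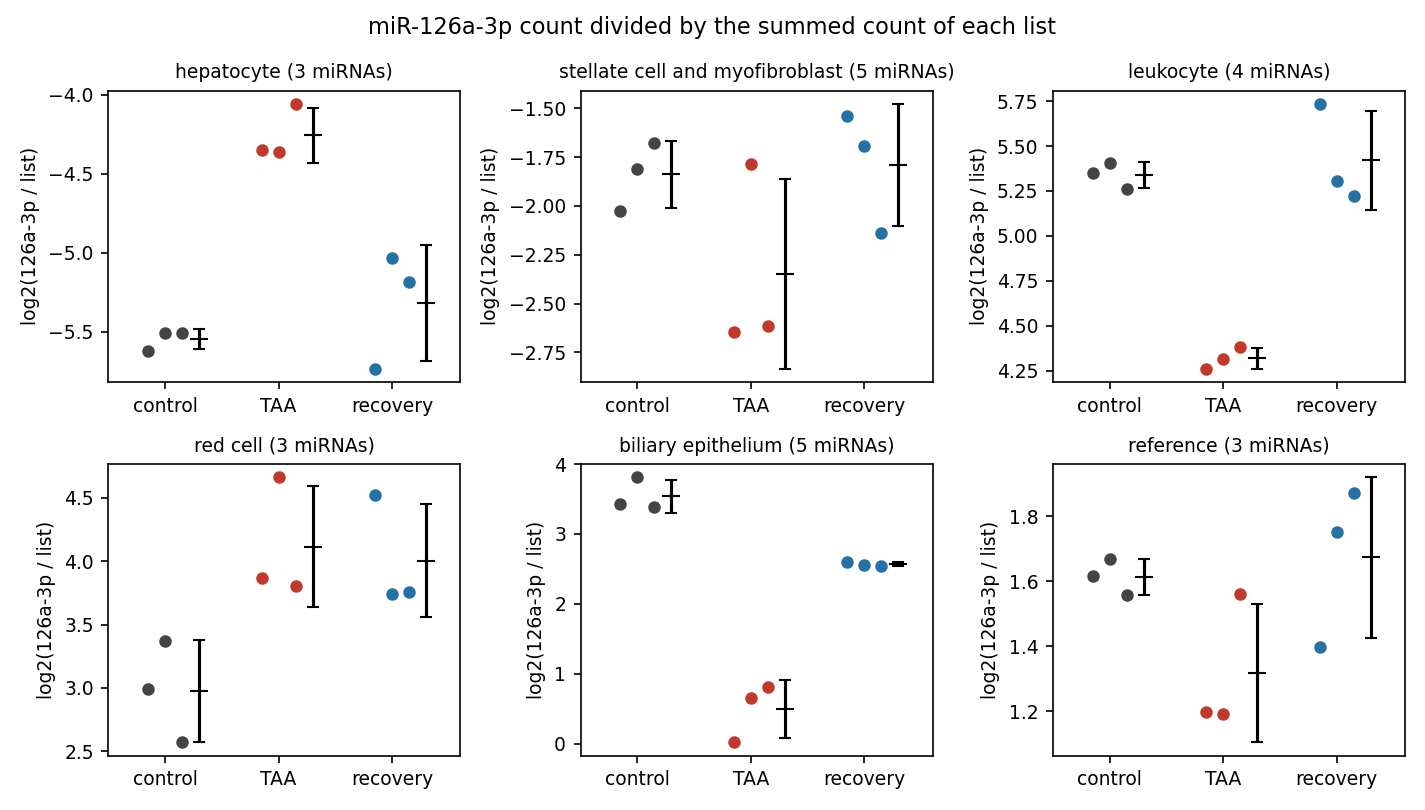
Log2 of the count of miR-126a-3p divided by the summed count of each list of marker or reference miRNAs (panels, number of miRNAs in the title) in each liver, with mean ± SD of n = 3 at the side; the vertical ranges differ between panels. Relative to hepatocyte markers the TAA livers are higher than all others, and relative to leukocyte and biliary markers they are lower than all others. Relative to the summed stellate cell list and the reference miRNAs they overlap both other groups.

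Other miRNAs known for roles in endothelial cells and vessel growth were read beside miR-126. Of 25 such miRNAs, 24 were listed, and all 24 were tested in each comparison. In TAA against control 14 of 24 were called with TMM, 10 higher and 4 lower, beside the 58.3% of all rows given above. Their median log2 fold change was 0.44, against 0.11 for all rows. By library total 21 of 24 were called, all as higher, with a median of 1.56 against 1.23. On that scale 77.1% of all rows were called, 71.9% as higher. In recovery against TAA 7 of 24 were called with TMM, 2 higher and 5 lower (39.1% of all rows), with a median of -0.38 against -0.12. By library total 20 were called, all as lower, beside 64.1% of all rows called and 60% called lower. In recovery against control 2 of 24 were called with TMM, miR-31-5p as higher (12% of all rows) and miR-17-5p as lower (2.05%). One of the members called in the first 2 comparisons, miR-24-3p, had counts nearly identical to those of miR-3074-5p.

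miR-218-5p, which lies in introns of Slit2 and Slit3 and represses their receptor Robo1, had the largest fold change of the list. It stood at 13.2 ± 0.957 TMM-scaled CPM in the control group (SD, n = 3), 299 ± 115 in TAA livers and 13.7 ± 5.06 in recovery livers. The fold change was 4.40 on the log2 scale in TAA against control (SE 0.27, edgeR adjusted p = 4.61e-05) and -4.46 in recovery against TAA (SE 0.38, adjusted p = 0.000283), with the same directions by library total (5.51 and -5.29). miR-31-5p, which represses the lymphatic regulator Prox1, was higher by 0.88 in TAA against control (SE 0.16, edgeR adjusted p = 0.00244) and by 0.72 in recovery against control (SE 0.19, adjusted p = 0.027), a call that was lost without control replicate 1, 2 or 3 (adjusted p = 0.0634, 0.0999 and 0.0901). miR-23a-3p had a value of 0.76 in TAA against control and -0.76 in recovery against TAA, which missed the threshold (edgeR adjusted p = 0.0532 and 0.0651) and passed it without TAA replicate 1 (0.0144 and 0.0173). It passed in 9 of 12 alternatives that kept all samples in TAA against control and in 7 of 12 in recovery against TAA, among them library totals (1.88 and -1.64) and DESeq2 (0.74 and -0.68).

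At the other end of the list stood miR-378a-3p, from an intron of the metabolic coactivator gene Ppargc1b. It had 5714 ± 227 TMM-scaled CPM in the control group (SD, n = 3), 2573 ± 55.2 in TAA livers and 5096 ± 521 in recovery livers. It fell by 1.24 in TAA against control (SE 0.10, edgeR adjusted p = 0.000114) and rose by 0.96 in recovery against TAA (SE 0.12, adjusted p = 0.00106) with TMM, with values of -0.11 and 0.09 by library total that were not called. miR-10a-5p, from the Hoxb cluster, was close to miR-126a-3p in level and in fold change: it was at -0.49 (edgeR adjusted p = 0.0236) and 0.43 (adjusted p = 0.0461) with TMM, and at 0.63 and -0.43 by library total. Its call with TMM was lost without control replicate 2 or 3 or TAA replicate 2 or 3 in TAA against control (adjusted p from 0.054 to 0.0838), and without TAA replicate 2 or 3 or 1 of the recovery replicates, whichever was left out, in recovery against TAA (0.0533 to 0.143). Among alternatives that kept all samples, the call was lost in 3 and the direction turned in 2 for TAA against control. For recovery against TAA the call was lost in 7 and the direction turned in 2. miR-10b-5p, its relative in the Hoxd cluster, spread widely between mice, at 97.7 ± 55.5, 72.8 ± 60.5 and 140 ± 12.4 TMM-scaled CPM, and was not called in any of the comparisons. Without control replicate 3 its value in TAA against control turned from -0.50 to 0.015 and that in recovery against control went from 0.49 to 1.02 (edgeR adjusted p = 0.01), and without TAA replicate 3 that in recovery against TAA went from 0.93 to 1.82 (adjusted p = 0.016).

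miR-17-5p, of a cluster known for promoting the cell cycle, was at -1.19 in recovery against TAA (SE 0.38, edgeR adjusted p = 0.0399) and at -0.47 in recovery against control (SE 0.14, adjusted p = 0.0473). It stood at 73.5 ± 46.9 TMM-scaled CPM in the TAA group (SD, n = 3), against 43.4 ± 2.46 in the control group and 32.1 ± 2.02 in the recovery group. Its call in recovery against TAA was lost without TAA replicate 1 (log2 fold change -0.52, adjusted p = 0.0613) or with 1 recovery replicate left out, whichever it was (adjusted p from 0.102 to 0.138), and that in recovery against control in every fit with 1 replicate left out (0.0736 to 0.164). The remaining named members did not pass in recovery against control: miR-221-3p, which represses Kit, was at 0.25 (edgeR adjusted p = 0.339), miR-20a-5p of the same cluster as miR-17-5p at -0.39 (adjusted p = 0.117), and miR-130a-3p at -0.32 (adjusted p = 0.382). With 1 liver fewer the count of called members of the list ran from 4 to 14 in TAA against control and from 4 to 8 in recovery against TAA. The calls over all rows ran from 189 to 244 and from 123 to 192. In TAA against control the list had 7, 5 and 4 calls without control replicate 1, 2 and 3, beside 199 of 450, 189 of 453 and 190 of 463 rows in all. In recovery against TAA it had 4 with recovery replicate 1, 2 or 3 left out, beside 124 of 468, 123 of 464 and 144 of 468 rows. In recovery against control it had 0 without control replicate 1 or 2 (48 of 401 and 50 of 407 rows in all). It had 1 in the other 4 fits with 1 replicate left out (47 to 58 rows in all).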

How the data were processed

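Small RNA libraries (NEBNext kit) from 9 mouse livers were sequenced by the authors and aligned with Bowtie 1.3.0 to mm10 and miRBase, per the labels and the study's methods. Strand and multi-mapping settings are not given in the sources used here. The deposited table holds read counts per mature miRNA and, beside them, TPM, which equalled the CPM of its column. The mRNA libraries were not analysed here.

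Counts were tested pairwise with edgeR 4.0.16 in R 4.3.3 (quasi-likelihood, filterByExpr with a minimum count of 10, TMM, Benjamini-Hochberg over all rows), arm ratios with limma 3.58.1 (pseudocount 0.5 on both counts), and single ratios by exact permutation. The test code was checked on simulated data. DESeq2 1.42.0, which the study used, served as an alternative. Groups came from the sample titles. Replicates were separate mice, per the study's methods. The named miRNAs were the miR-126 rows, the 5 rows nearest in pattern, and the 3 highest and 3 lowest fold changes of the vessel growth list per comparison with a mean of at least 10 CPM. The members and lists were chosen with earlier results of these data known. Sequences are from RefSeq (GRCm38.p6, the mm10 build), with 3 of 4 members matched. Intervals of counting error cover counting only.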

Additional observations from a re-analysis of the deposited data

How the results depend on the processing

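With all samples kept, the miR-126 rows changed direction in TAA against control by library total and with limma on TPM only. In recovery against TAA the same 2 alternatives turned both miR-126a arms, but not miR-126b-5p. By library total the log2 fold changes in TAA against control were 0.58 (miR-126a-3p), 0.31 (miR-126a-5p) and 0.30 (miR-126b-5p), and limma on log2(TPM + 1) gave 0.57, 0.31 and 0.28. In recovery against TAA the values were -0.42 and -0.14 by library total and -0.41 and -0.14 with limma on TPM for the miR-126a arms. The reference miRNAs left miR-126a-3p without a call (-0.29 and 0.36), as did, in recovery against TAA, no filter (0.44, adjusted p = 0.0615), a mean of at least 10 CPM (0.29, adjusted p = 0.0962) and the replicate block (0.45, adjusted p = 0.0724). In recovery against control, values near 0 that were never called changed sign: miR-126a-3p was at 0.16 by library total and 0.16 with limma on TPM, 0.072 with the reference miRNAs, 0.047 with a mean of at least 10 CPM and 0.012 with all 9 samples, and miR-126a-5p at 0.17, 0.17, 0.073, 0.055 and 0.022. miR-10a-5p also turned, to 0.63 by library total and 0.62 with limma on TPM in TAA against control and to -0.43 and -0.42 in recovery against TAA, as did miR-10b-5p in TAA against control (0.63 and 0.35). With DESeq2 (test or size factors), upper-quartile factors, all 9 samples, or without identical or near-identical rows (the last chosen after seeing the data), both miR-126a arms kept direction and call in both comparisons with TAA. The fits without identical or near-identical rows used TMM, so none took the repeat of miR-122 out of a library total. With upper-quartile factors miR-126a-5p reached -1.02 and miR-126b-5p -1.05 in TAA against control, past a fold of 2. In that comparison miR-126b-5p lost its call with the reference miRNAs (-0.57, adjusted p = 0.163) and with a mean of at least 10 CPM (-0.60, adjusted p = 0.13). In recovery against TAA it was past a fold of 2 with DESeq2 (1.03), its size factors (1.01) and upper-quartile factors (1.13), and lost its call by library total (0.07) and with limma on TPM (0.11). The alternatives for miR-126b-5p, for the named list members and for rows called in all were also chosen after seeing the data.

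Leaving out 1 replicate at a time gave, in TAA against control, -0.62 to -0.48 for miR-126a-3p, -0.86 to -0.74 for miR-126a-5p and 0.12 to 0.34 for the arm ratio. In recovery against TAA the ranges were 0.44 to 0.57, 0.70 to 0.82 and -0.35 to -0.13. In recovery against control they were -0.055 to 0.038, -0.066 to 0.017 and -0.072 to 0.046, and -0.022 to 0.40 for miR-126b-5p. Its range was -1.08 to -0.61 in TAA against control. miR-10b-5p ran from -1.39 to 0.015 there. Called list members numbered 4 to 14, 4 to 8 and 0 to 1 in the 3 comparisons, beside 189 to 244, 123 to 192 and 47 to 58 called rows in all. The log2 ratio of miR-126a-3p to marker lists changed sign without a replicate only where groups overlapped: red cell in recovery against TAA (-0.36 to 0.17) and, in recovery against control, stellate cell (-0.078 to 0.22), leukocyte (-0.074 to 0.18) and reference (-0.040 to 0.20).

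For the list, 20 members were called by library total in recovery against TAA (282 of 440 rows in all). In recovery against control 1 was called by library total (63 of 391 rows), 1 with DESeq2 (59 of 540) and 1 with the replicate block (56 of 391). Over all rows, the calls in TAA against control went from 245 of 420 rows to 157 of 239 with a mean of at least 10 CPM, those in recovery against TAA from 172 of 440 to 282 by library total and 272 with limma on TPM, and those in recovery against control from 55 of 391 to 23 of 208 with that mean. Correlations of same-numbered samples ran from -0.357 to 0.368, with both signs in each comparison, and the main tests treated the samples as unpaired. With 3 mice per group this check cannot exclude a pairing. The arm ratio stayed without a call under a pseudocount of 5, a minimum mean count of 100 per arm, all 9 samples, diffSpliceDGE of edgeR and the replicate block. With 3 mice per group, exact tests cannot go below 0.1, and depth limits miR-126b-5p most.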

Other observations

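miR-126a-3p and miR-126b-5p were read beside other mature miRNAs that lie across each other on opposite strands. Among rows with a RefSeq mature sequence there were 25 pairs with at least 15 shared bases on opposite strands of the same stretch and a summed count of at least 20. In 12 of these pairs the rarer row had over 95% of the counts of the other, among them miR-24-3p with miR-3074-5p (99.9%) and miR-142a-3p with miR-142b (equal counts of 1961). In 5 pairs it had under 5%. For miR-126b-5p against miR-126a-3p the share was 0.285% over the 9 livers, while on the other side of the same hairpin miR-126b-3p repeated miR-126a-5p in 8 of 9 libraries. The same locus thus held a row that repeated its partner and a row that did not. Among the 9 livers the share of miR-126b-5p was 0.375%, 0.282% and 0.202% of miR-126a-3p in the control group, 0.207%, 0.209% and 0.281% in the TAA group, and 0.389%, 0.295% and 0.32% in the recovery group, with the recovery livers all above the TAA livers and the controls overlapping both.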
